A study of Mus musculus with 12 samples.

Results

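*Ak4* encodes a mitochondrial adenylate kinase whose RNA is induced by low oxygen, and it is described here with 8 other genes of the same biology in Ly6d- CLPs and Flk2+ MPPs of young and young adult mice. The 9 genes are the adenylate kinases *Ak4* and *Ak3*, the glucose transporter *Slc2a1*, the glycolytic genes *Pgk1* and *Ldha*, the pyruvate dehydrogenase kinase *Pdk1*, the mitophagy receptor *Bnip3*, the angiogenic factor *Vegfa* and the oxygen-regulated transcription factor subunit *Hif1a*. They were selected by gene name from a table of 32285 genes, and all 9 were among the 13367 genes with enough counts to be tested. The selection started from *Ak4*, which is 1 of 4 genes higher at 3MO in the age comparison of Ly6d- CLPs, so the age values of the 9 genes are given as a description, beside the number of calls. The comparison of Ly6d- CLPs with Flk2+ MPPs weighs both ages equally, is not the contrast that chose *Ak4*, and is tested. It is not blind to the data, since the genes were chosen with earlier results of these data known.

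The series holds poly(A) RNA sequencing of 12 libraries from bone marrow (BM) of WT C57BL6/J mice. Ly6d- CLPs, the common lymphoid progenitors that lack the B-lineage marker Ly6d, and Flk2+ MPPs, the multipotent progenitors that carry the Flt3 receptor, were each sorted at 1 month (1MO) and 3 months (3MO) of age, with 3 libraries in each of the 4 groups. The study calls the 3 libraries of a group independent experimental repeats, so the p-values below measure the spread between these repeats. The groups differ in age and in the sorted cell type, and no allele, transgene or agent distinguishes them.

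The total of the estimated counts was between 8889083 and 20677785 per library, with a median of 13208993. *Il7r* and *Kit*, 2 of 11 progenitor markers looked up, separated the cell types. *Il7r*, the interleukin 7 receptor of lymphoid progenitors, averaged 371 and 340 CPM (estimated counts scaled to library size by TMM) in 1MO and 3MO CLPs. In MPPs it averaged 10.4 CPM at each age. *Kit*, the stem cell factor receptor, averaged 296 and 242 CPM in CLPs and 737 and 758 CPM in MPPs. *Ly6d* was low but higher in CLPs, at means of 5.32 and 3.30 CPM, than in MPPs, at 0.953 and 0.118 CPM. *Flt3*, whose receptor names the MPPs, averaged 1443 CPM in CLPs and 1234 CPM in MPPs over both ages. One library stood apart, the first of the 3MO MPPs, which had the highest value of all 12 libraries for 2402 of the 13367 genes and the lowest for 2650, against 687 to 1321 and 441 to 1312 genes in the other 11 libraries. Age differences in MPPs that it moves most are given with and without it. Markers of other cells were summed in each library. The summed level of 10 bone stroma markers was 311 to 703 CPM in 1MO CLPs, 94.9 to 128 CPM in 3MO CLPs, 68.6 to 173 CPM in 1MO MPPs and 62.2 to 115 CPM in 3MO MPPs, with 3 of the 10 at 0 in every 3MO CLP library. Nearly all of the sum in 3MO CLPs was *Pdgfrb*, at 84.7 to 121 CPM there and 89.3 to 113 CPM in 1MO CLPs, while *Col1a1* was at 134 to 400 CPM in 1MO CLPs and at 0 to 1.92 CPM in 3MO CLPs, and *Col1a2* at 65.8 to 168 CPM and 0 to 1.66 CPM. The sum of 9 granulocyte markers was 137 to 185 CPM in 1MO CLPs, 164 to 244 CPM in 3MO CLPs, 118 to 143 CPM in 1MO MPPs and 123 to 325 CPM in 3MO MPPs, with none at 0 throughout a group, and that of 7 B-lineage markers was 83.0 to 118 CPM in 1MO CLPs, 39.4 to 61.7 CPM in 3MO CLPs and 8.99 to 20.8 CPM in MPPs. The sum of the 8 erythroid markers in the table was 157, 99.2, 155 and 129 CPM in the libraries numbered 3 of the 1MO CLPs, 3MO CLPs, 1MO MPPs and 3MO MPPs, and 12.6 to 31.6 CPM in the other 8 libraries. In bulk RNA, fewer cells of a type and less RNA per cell cannot be told apart.

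Adenylate kinases interconvert adenine nucleotides, and AK3 and AK4 are the forms of the mitochondrial matrix, where AK3 uses GTP to phosphorylate AMP. Under low oxygen the HIF1A protein escapes hydroxylation by the prolyl hydroxylases (EGLN proteins) and destruction through VHL, pairs with ARNT, and binds a short DNA core in the promoters and enhancers of its targets. These targets raise glucose uptake and glycolysis, hold pyruvate back from mitochondria, remove mitochondria and recruit vessels. The BM is a poorly oxygenated tissue, and HIF1A is known for its role in keeping hematopoietic stem cells glycolytic.

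The hypoxia response core is ACGTG or GCGTG on either strand, which reads CACGT or CACGC on the other strand. It was searched in RefSeq promoter windows of GRCm38.p6 that run from 250 bases before to 50 bases after a transcription start. All 9 genes had a window, and the first listed window of 7 held at least 1 match, against 43.8% of the first windows of 27025 genes. *Ldha* had 7 matches, *Bnip3* 5, *Hif1a* 3, and *Ak4*, *Slc2a1*, *Pgk1* and *Pdk1* 2 each, where the palindrome CACGTG counts as 2 overlapping matches. *Ak3* and *Vegfa* had none in this window, although a further *Vegfa* window at an internal start held 2. Further windows of *Ak4* held 2 or 3 matches, that of *Ldha* held 2, and that of *Pdk1* held 0. The windows were not matched for base composition, and a match is no evidence that a factor binds there. Most of the 9 genes were listed because HIF is known to induce them, so nothing is read from their share. The windows of *Ak4* and *Vegfa*, whose RNA differed most between the ages, and of *Ldha* and *Pgk1*, whose RNA differed little, are shown 5′ to 3′ on the strand of the gene, with every match in capitals. The *Ak4* window lies on the plus strand at chr4:101419039-101419338, that of *Vegfa* on the minus strand at chr17:46032328-46032627, that of *Ldha* on the plus strand at chr7:46845554-46845853, and that of *Pgk1* on the plus strand at chrX:106186850-106187149.
Ak4: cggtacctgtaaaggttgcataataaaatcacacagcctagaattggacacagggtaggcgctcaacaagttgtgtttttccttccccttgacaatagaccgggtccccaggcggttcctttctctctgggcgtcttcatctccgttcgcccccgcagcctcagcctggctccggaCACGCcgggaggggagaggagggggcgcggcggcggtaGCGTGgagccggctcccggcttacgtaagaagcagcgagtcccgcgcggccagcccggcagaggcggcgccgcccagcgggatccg
Vegfa: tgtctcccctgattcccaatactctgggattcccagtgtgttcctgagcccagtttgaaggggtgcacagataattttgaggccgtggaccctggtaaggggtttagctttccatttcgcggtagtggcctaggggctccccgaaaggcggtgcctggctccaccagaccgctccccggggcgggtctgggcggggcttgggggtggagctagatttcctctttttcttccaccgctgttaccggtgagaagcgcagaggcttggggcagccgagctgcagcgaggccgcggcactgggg
Ldha: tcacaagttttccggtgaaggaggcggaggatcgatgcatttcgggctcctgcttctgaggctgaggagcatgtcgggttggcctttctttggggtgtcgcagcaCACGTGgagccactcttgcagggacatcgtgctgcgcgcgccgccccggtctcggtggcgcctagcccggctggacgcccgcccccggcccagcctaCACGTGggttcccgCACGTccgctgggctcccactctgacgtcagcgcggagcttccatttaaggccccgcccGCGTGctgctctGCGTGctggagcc
Pgk1: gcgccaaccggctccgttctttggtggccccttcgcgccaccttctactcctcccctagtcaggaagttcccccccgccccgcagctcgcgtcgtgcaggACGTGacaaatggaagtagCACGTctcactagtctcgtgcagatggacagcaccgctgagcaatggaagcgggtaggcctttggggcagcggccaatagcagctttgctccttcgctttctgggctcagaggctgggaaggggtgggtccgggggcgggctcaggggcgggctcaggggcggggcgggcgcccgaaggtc

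*Ak4* RNA was higher at 3MO than at 1MO in both cell types, and its 2 ages did not overlap in either. In 1MO CLPs the 3 libraries held 8.28, 8.55 and 5.46 CPM, from 92, 173 and 86 counts, and in 3MO CLPs 23.7, 41.3 and 31.7 CPM, from 235, 747 and 401 counts. The lowest 3MO CLP library was thus above the highest 1MO CLP library by more than the range of the 1MO group. In Flk2+ MPPs the 1MO libraries held 13.5, 13.5 and 12.2 CPM and the 3MO libraries 35.3, 26.9 and 34.7 CPM. The 1MO MPPs lay close together and every 3MO MPP library was above them, as the plot of the 9 genes by library shows.

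**Figure D1:**
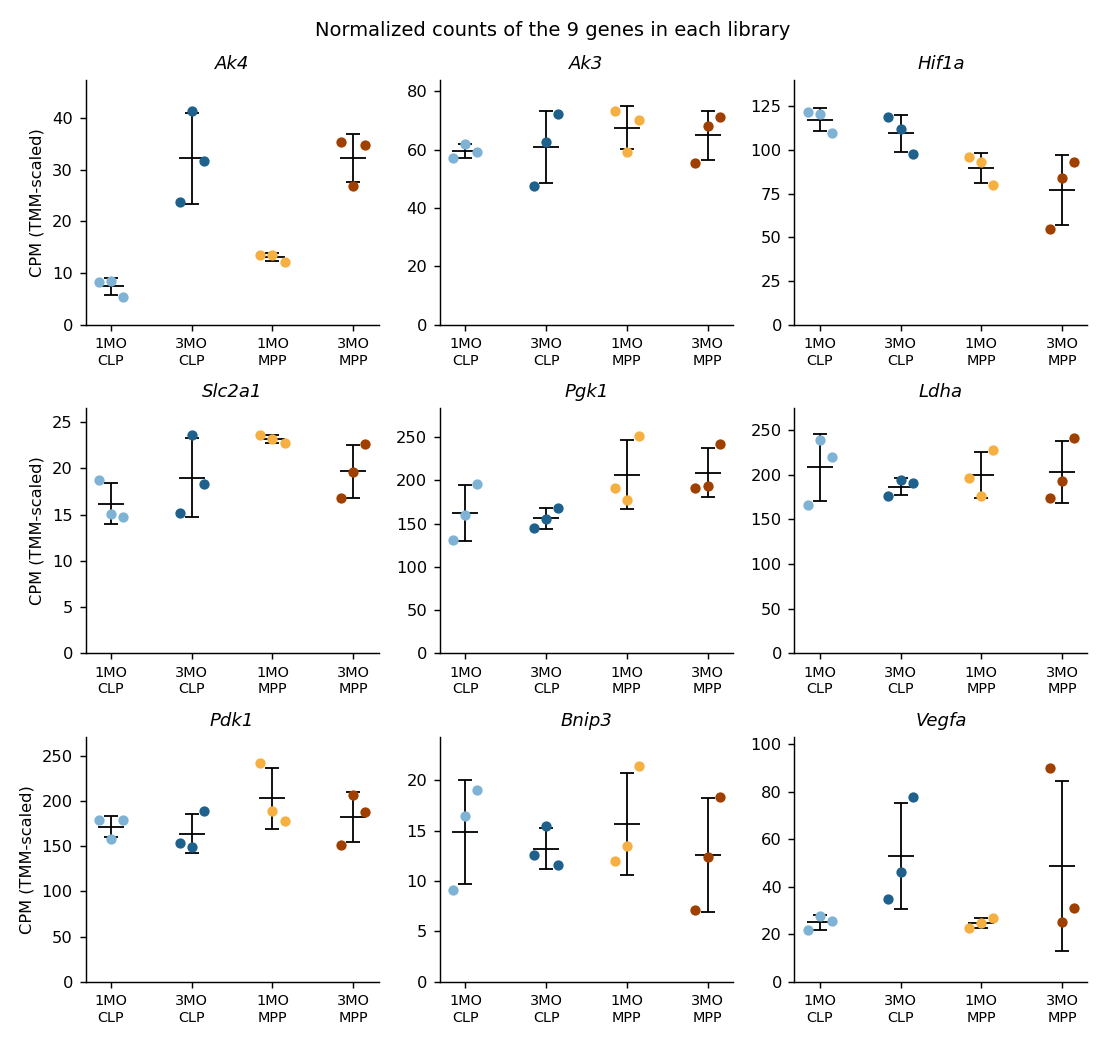
Normalized counts (CPM, TMM-scaled) of the 9 genes, with 1 point per library, the group mean as a horizontal line and bars of 1 SD (n = 3). In the panel of Ak4 the 1MO libraries lie between 5.46 and 13.5 CPM and the 3MO libraries between 23.7 and 41.3 CPM, while the ages overlap in both cell types for Ak3, Hif1a, Pgk1, Ldha, Pdk1 and Bnip3.

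Ordered by its mean, *Ak4* was lowest in 1MO CLPs (7.43 ± 1.71 CPM, SD, n = 3), followed by 1MO MPPs (13.1 ± 0.767 CPM) and then by 3MO CLPs (32.2 ± 8.81 CPM) and 3MO MPPs (32.3 ± 4.69 CPM). The last pair did not differ beyond their spread, with a log2 fold change of CLPs minus MPPs at 3MO of 0.00 (SE 0.28), against -0.81 (SE 0.29) at 1MO. The ratio of the 3MO to the 1MO mean was 4.34 in CLPs and 2.47 in MPPs. On the log2 scale the fitted difference, 3MO minus 1MO, was 2.12 (SE 0.29) in CLPs and 1.31 (SE 0.28) in MPPs, and the first exceeded the second by 0.81 (SE 0.40). Leaving out each library in turn gave 1.90 to 2.29 in CLPs and 1.24 to 1.42 in MPPs, which is a description, since groups that do not overlap keep their direction whichever library is left out. Among the 9 genes, *Ak4* was the 1 past an adjusted p of 0.05 in edgeR's test of age in CLPs, where 0.0748% of the 13367 genes passed. With the CLP libraries alone it missed the threshold (adjusted p = 0.075 in edgeR). In MPPs 0 of the 9 passed, where 0.0224% of genes did. At an unadjusted p under 0.05 in edgeR there were 2 of the 9 in each cell type, beside 5.9% of all genes in CLPs and 3.48% in MPPs. DESeq2 called 1, *Ak4*, in MPPs, where it called 35 of 17730 genes. Since *Ak4* was chosen on its age difference, nothing is read from these counts. In the test of whether the age difference itself differed between the cell types, 0 of the 9 and 0 of all 13367 genes passed (0.0%), with 429 genes at an unadjusted p under 0.05 in edgeR and 7 genes past the adjusted threshold in DESeq2.

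The second 3MO CLP library had the most *Ak4*, 41.3 CPM, and also the highest granulocyte marker sum of the CLPs, 244 CPM. The first 3MO MPP library had 35.3 CPM of *Ak4*, the highest of its group, at a granulocyte marker sum of 123 CPM, which is within the 118 to 143 CPM of the 1MO MPPs. In it *Ngp* and *S100a8* were above every 1MO MPP library, *Prtn3* and *Ctsg* below every one, and the other 5 markers within their range. Of the 9 granulocyte markers, 8 in CLPs and 9 in MPPs had a log2 age difference above 0, beside 6486 and 6430 of all 13367 genes. At an unadjusted p under 0.05, 2 and 5 of them were higher at 3MO, beside 396 and 276 of all genes, and 0 passed edgeR's adjusted threshold, beside 0.0748% and 0.0224%. In CLPs the stroma and B-lineage sums were lower in every 3MO library, opposite to *Ak4*. The part of these markers in the age values was not tested. The *Ak4* gene (ENSMUSG00000028527) spans 101419277 to 101466995 on the plus strand of chromosome 4 of GRCm38, and no annotated gene overlaps it. Within 500 kb, 6 genes were tested, which were looked up after the values of *Ak4* were seen, and 0 passed for age in either cell type, beside the 0.0748% and 0.0224% of all genes. The closest, *Dnajc6*, an auxilin that uncoats clathrin vesicles, had log2 differences of 0.82 in CLPs and 0.26 in MPPs, and the kinase gene *Jak1* had -0.09 and 0.05.

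*Ak3*, the paralog that shares the mitochondrial matrix with *Ak4*, showed no such difference. It held 57.2, 61.9 and 59.3 CPM in 1MO CLPs and 47.7, 62.6 and 72.3 CPM in 3MO CLPs. In MPPs it held 73.4, 59.3 and 70.1 CPM at 1MO and 55.4, 68.2 and 71.2 CPM at 3MO. The 4 groups overlapped, with log2 age differences of 0.03 (SE 0.19) in CLPs and -0.06 (SE 0.19) in MPPs. Part of its exons overlap those of *Cdc37l1* on the opposite strand, and whether the counting used strand is not given in the sources used here. Per kilobase of exon, a scale on which genes can be compared, *Ak3* averaged 20.3 CPM per kb over the 12 libraries and *Ak4* 4.58 CPM per kb. *Ak4* was at 1.60 and 6.94 CPM per kb in 1MO and 3MO CLPs and at 2.81 and 6.96 CPM per kb in 1MO and 3MO MPPs, below *Ak3* in every group.

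Other adenylate kinase genes that were tested did not pass for age in either cell type or between the cell types, where 0.0748%, 0.0224% and 13.3% of all genes passed. *Ak6*, a nuclear form, averaged 19.8 CPM per kb with log2 age differences of -0.19 and -0.09. *Ak1*, the cytosolic form known from muscle, was low at 1.56 CPM per kb. It reached 21.9 CPM in the first 3MO MPP library and was at 0 to 5.46 CPM in the other 11. *Ak8*, of cilia, had at most 41 counts in any library. The untested *Ak5*, *Ak7* and *Ak9* averaged under 1 CPM in each group.

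The gene of the oxygen-regulated subunit itself, *Hif1a*, was not higher at 3MO. It held 122, 121 and 110 CPM in 1MO CLPs and 119, 112 and 97.8 CPM in 3MO CLPs. In MPPs it held 96.0, 93.4 and 79.8 CPM at 1MO and 54.8, 83.9 and 93.0 CPM at 3MO. The ages overlapped in both, with log2 differences of -0.10 (SE 0.19) and -0.21 (SE 0.19), the latter -0.02 without the first 3MO MPP library, the lowest of the 12. HIF1A is regulated mostly as a protein, which was not measured. Antisense genes overlap exons of *Hif1a* (*Gm15283*), *Slc2a1* (*Gm12868*) and *Bnip3* (*Gm45507*), and their reads cannot be told apart without knowing whether strand was used. *Gm49321*, a protein-coding gene that was not counted, overlaps exons of *Hif1a* on the same strand, where strand would not separate the reads.

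The age differences of the genes of glucose uptake and glycolysis were also small. *Slc2a1*, a widely expressed glucose transporter, held 18.7, 15.1 and 14.8 CPM in 1MO CLPs and 15.1, 23.6 and 18.3 CPM in 3MO CLPs. In MPPs it was at 23.6, 23.2 and 22.7 CPM at 1MO and at 16.8, 19.6 and 22.6 CPM at 3MO, so every 3MO library lay below every 1MO library, as in 4.61% of all genes. Its log2 age differences were 0.23 (SE 0.26) in CLPs and -0.23 (SE 0.26) in MPPs. *Pgk1*, the phosphoglycerate kinase that makes ATP in glycolysis, ranged from 131 to 196 CPM in CLPs and from 177 to 251 CPM in MPPs, with log2 age differences of -0.06 (SE 0.19) and 0.02 (SE 0.19). *Ldha*, the lactate dehydrogenase subunit that turns pyruvate into lactate, ranged from 167 to 241 CPM over the 12 libraries, with log2 age differences of -0.16 (SE 0.18) in CLPs and 0.02 (SE 0.18) in MPPs. *Pdk1*, which blocks the entry of pyruvate into the mitochondrial citric acid cycle, ranged from 150 to 242 CPM with differences of -0.07 (SE 0.17) and -0.15 (SE 0.17). All of *Pgk1*, *Ldha* and *Pdk1* were far above *Ak4* in level, at 81.7, 60.2 and 23.2 CPM per kb. *Bnip3*, the mitophagy receptor, was at 9.09 to 19.0 CPM in CLPs and at 7.08 to 21.4 CPM in MPPs, and its log2 age differences were -0.17 (SE 0.39) and -0.31 (SE 0.39), the latter -0.03 without the first 3MO MPP library.

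*Vegfa*, the secreted factor that draws vessels, was the 1 other member with a difference above 0.50 on the log2 scale. It held 21.7, 27.5 and 25.6 CPM in 1MO CLPs and 34.8, 46.1 and 77.8 CPM in 3MO CLPs, so the ages did not overlap, as in 4.51% of all genes in this direction. In MPPs it held 22.4, 24.6 and 26.6 CPM at 1MO and 89.9, 25.3 and 31.0 CPM at 3MO. There the ages overlapped and the first 3MO MPP library was far above the other 5. The log2 age difference was 1.08 (SE 0.40) in CLPs and 0.98 (SE 0.40) in MPPs, and the latter was 0.19 without that library. In CLPs it was 0.70 without the third 3MO library. Of the 9 genes, *Ak4* alone was higher in every 3MO library in both cell types, a pattern found in 0.486% of all genes.

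The wider hypoxia response was described with 52 other genes known to be induced by HIF, of which 44 were tested. Among them 0 passed edgeR's adjusted threshold for age in CLPs and 0 in MPPs, beside 0.0748% and 0.0224% of all genes, while DESeq2, which called 65 and 35 of 17730 genes, called 0 in CLPs and 1, *Ndrg1*, in MPPs. At an unadjusted p under 0.05 there were 5 of 44 in CLPs, 2 higher and 3 lower at 3MO, where 5.9% of all genes had such a p. In MPPs there were 3 of 44, all higher at 3MO, where the share of all genes was 3.48%. The median log2 age difference of the 44 genes was 0.05 in CLPs and -0.06 in MPPs, against -0.01 over all genes tested in each cell type. In CLPs 4 of the 44 were higher in every 3MO library (4.51% of all genes) and 2 were lower in every 3MO library (6.13%). In MPPs 4 of the 44 were higher in every 3MO library (3.96% of all genes) and 0 were lower in every 3MO library (4.61%).

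**Figure D2:**
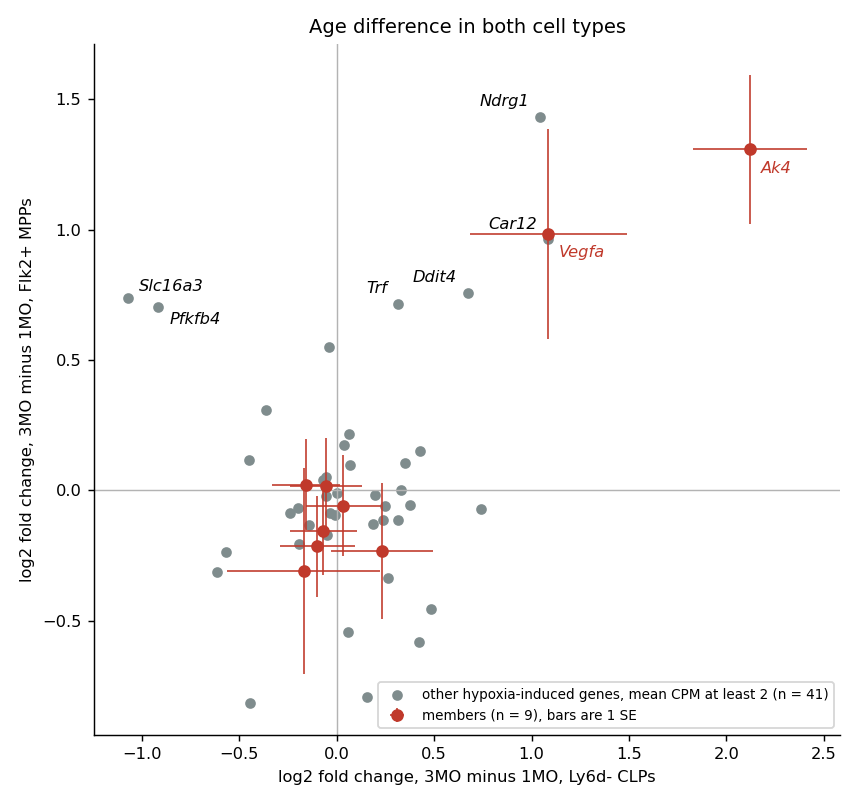
Log2 fold change of 3MO over 1MO in Ly6d- CLPs (x axis) and Flk2+ MPPs (y axis) for the 9 members, with bars of 1 SE, and for the 41 tested other hypoxia-induced genes with a mean of at least 2 CPM. Ak4 lies farthest from 0 among the members, at 2.12 and 1.31, followed by Vegfa at 1.08 and 0.98 with Ndrg1 and Car12 around it, and the other 7 members lie within 0.50 of 0 on both axes.

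The 14 other genes of glycolysis had a median log2 age difference of -0.04 in each cell type, and 13 of 14 in CLPs and 12 of 14 in MPPs were within 0.50 of 0, beside 9895 and 10414 of all 13367 genes. None of the 14 passed edgeR's adjusted test of age, as few of all genes did (0.0748% in CLPs and 0.0224% in MPPs). *Pgam1*, the phosphoglycerate mutase, had the smallest p of the genes that were lower in CLPs. It held 124, 148 and 142 CPM in 1MO CLPs and 85.3, 115 and 103 CPM in 3MO CLPs, a log2 difference of -0.45 (SE 0.17, adjusted p = 0.79 in edgeR), and one of 0.12 (SE 0.17) in MPPs. *Pfkfb4*, which sets the level of the glycolytic activator fructose 2,6-bisphosphate, was at 24.9, 20.7 and 19.4 CPM in 1MO CLPs and at 8.48, 12.7 and 13.2 CPM in 3MO CLPs. Its log2 difference there was -0.92 (SE 0.40, adjusted p = 0.84 in edgeR). In MPPs it was 0.70 (SE 0.40), and 0.00 without the first 3MO library, which held 47.8 CPM. *Ankrd37*, a small ankyrin repeat gene induced by HIF, was detected with 0, 19 and 17 counts in 1MO CLPs and with 0 counts in all 3 libraries of 3MO CLPs, too few for a fold change.

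Of the other induced genes tested, *Ndrg1* and *Car12* shared with *Ak4* that their ages did not overlap in either cell type. *Ndrg1*, a stress-responsive gene of uncertain biochemical function and a classical target of HIF, held 56.5, 20.8 and 24.6 CPM in 1MO CLPs and 63.7, 81.9 and 63.8 CPM in 3MO CLPs. In MPPs it held 32.5, 54.3 and 27.7 CPM at 1MO and 143, 81.7 and 83.8 CPM at 3MO. Every 3MO library was thus above every 1MO library of its cell type. The log2 difference was 1.05 (SE 0.36) in CLPs and 1.43 (SE 0.36) in MPPs, with an adjusted p in edgeR of 0.69 and 0.56. Leaving out single libraries moved it between 0.79 and 1.62 in CLPs, the latter without the first 1MO library, and between 1.12 and 1.77 in MPPs, the former without the first 3MO library.

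*Car12*, a membrane carbonic anhydrase that buffers pH outside the cell, was low, and its ages were split in the same way. It held 5.76, 4.10 and 1.52 CPM in 1MO CLPs against 11.0, 6.25 and 6.88 CPM in 3MO CLPs, and 3.70, 5.49 and 3.07 CPM in 1MO MPPs against 8.99, 6.91 and 7.94 CPM in 3MO MPPs. Its log2 differences were 1.08 (SE 0.54) and 0.96 (SE 0.54). *Ndrg1* and *Car12* were the 2 of the 44 genes that were higher in every 3MO library in both cell types, where 0.486% of all genes were. Neither passed the adjusted test in edgeR.

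*Ddit4*, an inhibitor of mTORC1 that rises under low oxygen and other stress, was at 17.1, 29.9 and 23.9 CPM in 1MO CLPs and 33.3, 38.2 and 41.8 CPM in 3MO CLPs, which did not overlap. In MPPs it was at 21.4, 15.5 and 35.9 CPM at 1MO and 29.6, 46.4 and 47.2 CPM at 3MO, which did. The log2 differences were 0.67 (SE 0.31, adjusted p = 0.84 in edgeR) and 0.76 (SE 0.32, adjusted p = 1.0). *Trf*, the iron carrier transferrin, held 58.9, 86.2 and 81.0 CPM in 1MO MPPs and 99.3, 132 and 140 CPM in 3MO MPPs, a log2 difference of 0.72 (SE 0.23, adjusted p = 1.0 in edgeR), while its ages overlapped in CLPs. At the other end in MPPs were *Plod2* and *Hilpda*, a collagen lysyl hydroxylase and a lipid droplet protein, with log2 differences of -0.58 (SE 0.50) and -0.54 (SE 0.47), and *Lox*, a collagen cross-linking enzyme with 0, 1 and 5 counts in 1MO MPPs and 0 in 3MO MPPs. The targets *Epo*, *Adm*, *Edn1* and *Ndufa4l2*, had no count in any of the 12 libraries.

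**Figure D3:**
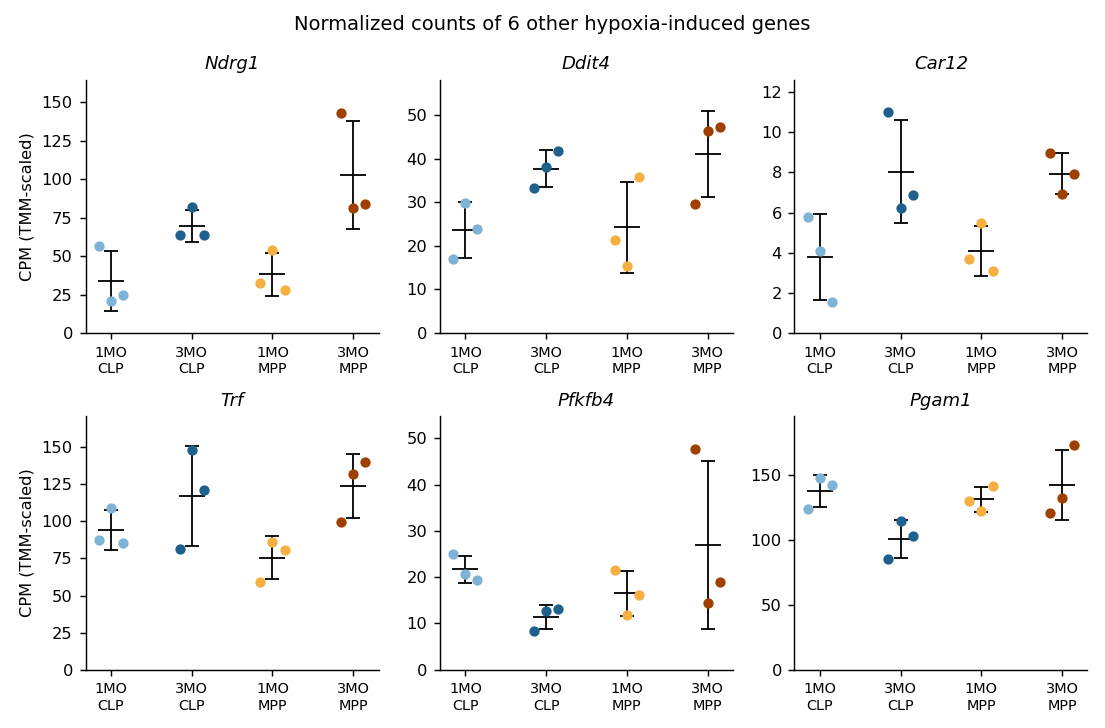
Normalized counts (CPM, TMM-scaled) of 6 other hypoxia-induced genes, with 1 point per library, the group mean as a horizontal line and bars of 1 SD (n = 3). Ndrg1 and Car12 are higher in every 3MO library of both cell types, while Pgam1 and Pfkfb4 are lower in every 3MO CLP library.

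Of 15 genes besides *Hif1a* of the machinery that senses oxygen, 13 were tested. Of these 0 passed for age in CLPs and 0 in MPPs, where 0.0748% and 0.0224% of all genes passed, and 0 had an unadjusted p under 0.05, where 5.9% and 3.48% of all genes did, so that few or none would be called at the share of all genes. Their median log2 age difference was 0.02 in each. The most abundant were the coactivators *Ep300* and *Crebbp* and the prolyl hydroxylase *Egln1*. *Arnt*, the partner of HIF1A, ranged from 71.2 to 110 CPM. Of 12 genes that share mitochondrial nucleotides with AK3 and AK4, which encode adenine nucleotide carriers, succinyl-CoA synthetase and nucleoside diphosphate kinases, 11 were tested and 0 passed for age in either cell type, beside the same 0.0748% and 0.0224% of all genes. Their median log2 age difference was -0.13 in CLPs and -0.22 in MPPs.

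Between the cell types, averaged over the ages, 1 of the 9 members passed edgeR's unpaired test, while 13.3% of all genes passed. CLP and MPP libraries of an age and number may come from the same mouse, which this test does not use. With such libraries blocked as pairs, *Hif1a* and *Pgk1* passed. *Hif1a* was higher in Ly6d- CLPs, where its 6 libraries ranged from 97.8 to 122 CPM, than in Flk2+ MPPs, where they ranged from 54.8 to 96.0 CPM. The cell types did not overlap, and the log2 difference of CLPs minus MPPs was 0.44 (SE 0.14, adjusted p = 0.041). This call is close to the threshold, since it was lost in 10 of the 12 fits that left out 1 library, with log2 differences between 0.35 and 0.52 and an adjusted p of at most 0.107. *Pgk1* was lower in CLPs by a log2 difference of -0.38 (SE 0.13, adjusted p = 0.068), and the replicate block and DESeq2 both brought it past the threshold (adjusted p = 0.013 and 0.045). *Ak4* differed by -0.41 (SE 0.20, adjusted p = 0.22). The other 6 members had log2 differences between -0.28 and 0.07 and an adjusted p of at least 0.357. The median of the 9 was -0.14, against -0.03 over all genes tested.

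Of the 44 other hypoxia-induced genes, 6 passed between the cell types, 2 higher and 4 lower in CLPs, beside the 13.3% of all genes, and the median log2 difference of the 44 was -0.19. *Slc2a3*, a high-affinity glucose transporter, was at 34.2 to 54.0 CPM in CLPs and 73.7 to 100 CPM in MPPs (log2 difference -1.004, SE 0.15, adjusted p = 0.00026 in edgeR). The aldolase *Aldoa* was lower in CLPs too, at 93.4 to 123 CPM against 138 to 250 CPM (-0.77, SE 0.14, adjusted p = 0.0016). The cell types did not overlap for either gene. *Aldoa* has 2 rows in the table, and the one with far more counts was used. *Hk1*, the hexokinase that traps glucose in the cell, was named after its values were seen, with a difference of -0.45 (SE 0.13, adjusted p = 0.028) that was lost in 8 of the 12 fits without 1 library. *Plod2* was lower in CLPs (-1.47, SE 0.36, adjusted p = 0.012) and lost its call without the first 1MO MPP library (adjusted p = 0.055).

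In the other direction, *Tfrc*, the transferrin receptor that takes up iron, was at 393 to 731 CPM in CLPs and at 70.3 to 159 CPM in MPPs (log2 difference 2.35, SE 0.21, adjusted p = 1.82e-06 in edgeR). *Egln1*, the main prolyl hydroxylase that marks HIF1A for destruction and is itself induced by HIF, was at 134 to 169 CPM in CLPs and 49.6 to 69.9 CPM in MPPs (1.20, SE 0.12, adjusted p = 4.61e-06). Both kept their call in all 12 fits that left out 1 library. *Lox* followed by its p, with 20, 10 and 32 counts in 1MO CLPs and 12, 0 and 0 counts in 3MO CLPs, and did not pass (adjusted p = 0.10). Its mean was lower in 3MO CLPs, as were the stroma markers *Col1a1* and *Col1a2*. The part of stroma in these counts was not tested.

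**Figure D4:**
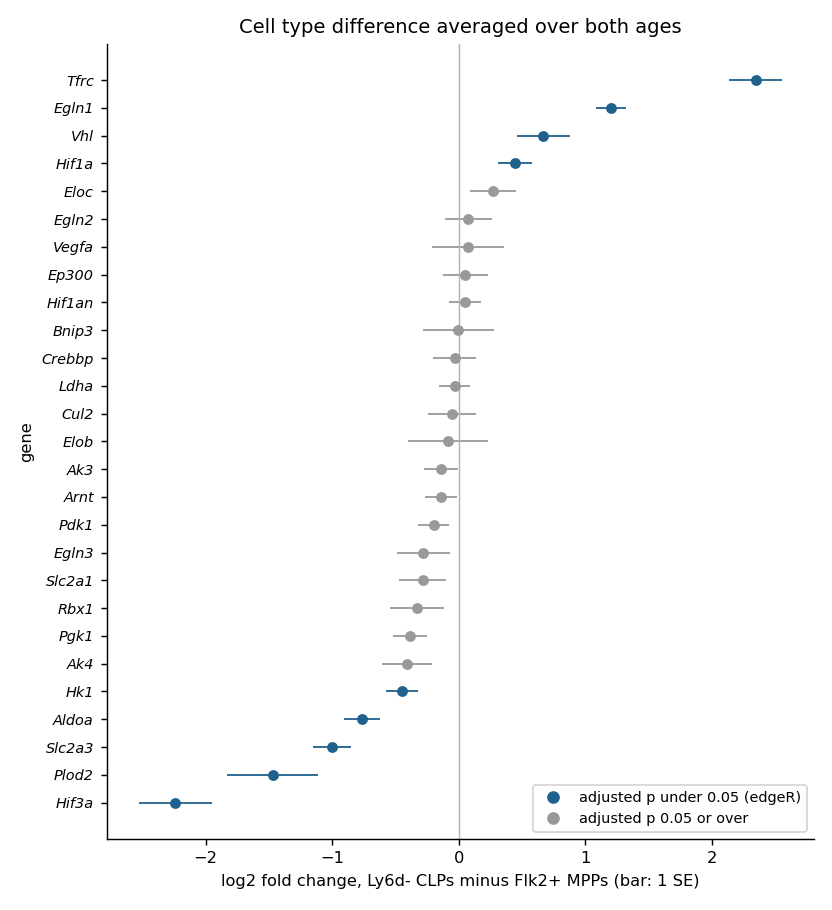
Log2 fold change of Ly6d- CLPs minus Flk2+ MPPs, averaged over both ages, with bars of 1 SE, for the 9 members, the 13 tested genes of the HIF machinery and 5 other induced genes, coloured by edgeR's adjusted p. Tfrc, Egln1, Vhl and Hif1a are higher in CLPs, and Hif3a, Plod2, Slc2a3, Aldoa and Hk1 are lower.

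Of the 13 tested genes of the HIF machinery, 3 passed between the cell types, where 13.3% of all genes did. Among them is *Egln1*, which is also counted with the hypoxia-induced genes above. *Hif3a*, a HIF subunit with forms that can restrain the others, was at 3.53 to 8.62 CPM in CLPs and 17.6 to 42.1 CPM in MPPs, without overlap (log2 difference -2.24, SE 0.29, adjusted p = 6.75e-05 in edgeR). Besides *Egln1*, *Vhl*, which binds hydroxylated HIF1A for degradation, was higher in CLPs, at 21.2 to 38.7 CPM against 15.3 to 27.1 CPM (0.67, SE 0.21, adjusted p = 0.046), a call that was lost in 9 of the 12 fits without 1 library. *Epas1*, the gene of HIF2A, was not tested, with at most 1.28 CPM in any library. Of the 11 tested mitochondrial nucleotide genes, *Slc25a24*, a calcium-regulated carrier that exchanges ATP for phosphate, was the 1 that passed, beside the same 13.3% of all genes, at 15.6 to 26.3 CPM in CLPs and 25.2 to 48.6 CPM in MPPs (-0.81, SE 0.19, adjusted p = 0.0075).

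The genes most like *Ak4* were ranked by Pearson's r of log2 CPM over the 12 libraries, as a description. Since the ages are far apart in *Ak4*, a gene that differs between the ages scores high on this measure, and the libraries of a group share their age and cell type. Of 13366 genes the 5 with the highest r were *Ern1* (0.94), *H2-Q6* (0.90), *C130036L24Rik* (0.86), *Adam22* (0.86) and *Prodh* (0.86), and none of them lies on chromosome 4. *Ern1* encodes IRE1, a sensor of unfolded proteins in the endoplasmic reticulum, and averaged 201 ± 35.6 CPM in 1MO CLPs, 403 ± 83.7 CPM in 3MO CLPs, 256 ± 36.4 CPM in 1MO MPPs and 400 ± 38.2 CPM in 3MO MPPs (SD, n = 3). *Prodh* is the proline dehydrogenase of mitochondria, and *H2-Q6* is a class I histocompatibility gene whose reads may be shared with close copies. Ranked by Spearman's rho, 1 of these 5 was again among the first 5. *Ndrg1* was at rank 15 (r = 0.83), *Car12* at rank 37 (0.78) and *Vegfa* at rank 151 (0.67). The other members were far down the list, with *Slc2a1* at rank 2146 (0.31), *Ak3* at 4613, *Pgk1* at 4907, *Pdk1* at 8728, *Ldha* at 8946, *Bnip3* at 10117 and *Hif1a* at 11786 (-0.41).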

How the data were processed

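RNA from sorted BM progenitors was sequenced in 12 libraries, 3 for each of 1MO and 3MO Ly6d- CLPs and Flk2+ MPPs. The authors selected poly(A) RNA, made libraries with a directional kit, ran FastQC, UMI-tools, Trim Galore, STAR and Salmon (mm10, per the labels), and deposited estimated counts for each gene, adjusted for length but left unscaled for sequencing depth. All 12 columns matched a sample, 0 did not, and 0 pairs of libraries held identical values.

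The estimated counts were rounded and fitted in R 4.3.3 with edgeR 4.0.16 (filterByExpr, TMM, quasi-likelihood F test, 1 fit of 4 groups), with Benjamini-Hochberg adjustment over 13367 genes at 0.05. The test was checked on simulated counts. CPM used TMM library sizes, and log2 CPM a prior count of 2. CPM per kb used the exon union of GENCODE M21 on GRCm38. The members and lists were chosen with earlier results of these data known, and the lists came from general knowledge. Named were the 9 members, list genes past the threshold or highest in CPM in the adenylate kinase and HIF lists, the 3 smallest p per direction and comparison among the other induced genes, and the 5 genes most like *Ak4*. A result that this rule names is not reported here. Alternatives were DESeq2 1.42.0 (Wald test, or its size factors in edgeR), 2 other filters, replicate blocks, fits of 1 cell type, and each library left out.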

Additional observations from a re-analysis of the deposited data

How the results depend on the processing

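The count of genes called for age in CLPs was 10 and became 65 with DESeq2's Wald test, 46 without a filter on low counts, 4 with at least 10 counts in every library and 4 with the CLP libraries alone, and it lay between 6 and 10 when 1 library was left out, with 6 without 1MO CLP replicate 1 and 6 without 3MO CLP replicate 2. For age in MPPs the 3 calls became 35 with DESeq2, 26 without a filter and 1 with at least 10 counts in every library, and were 3 to 5 with 1 library left out (5 without 3MO MPP replicate 2). For the age effect of CLPs against MPPs the 0 calls became 7 with DESeq2 and 6 without a filter, and were 0 to 1 with 1 library left out (1 without 3MO CLP replicate 3). Of the other hypoxia-induced genes, 1 (*Ndrg1*) was called for age in MPPs with DESeq2 and 1 without a filter, and 0 in every fit for age in CLPs. Of the members, 2 differed between the cell types with DESeq2, 2 with the replicate block and 2 with the replicate block of age and number (*Hif1a* and *Pgk1*), and 0 to 1 with 1 library left out. The cause of these shifts was not tested. The 1772 genes between the cell types became 1377 to 2374. No called value changed sign. Log2 age differences close to 0 did when 1 library was left out: in CLPs *Ak3* (-0.11 to 0.17), *Pgk1* (-0.19 to 0.10) and *Bnip3* (-0.42 to 0.04), and in MPPs *Ak3* (-0.15 to 0.04), *Pgk1* (-0.11 to 0.18) and *Ldha* (-0.12 to 0.12), as did the cell type differences of *Ldha*, *Bnip3* and *Vegfa*. With the CLP libraries alone, the log2 age difference of *Ak4* was 2.12 (SE 0.32) and missed the threshold (adjusted p = 0.075), and in MPPs DESeq2 called it (adjusted p = 0.0063). Equal replicate numbers are not said to share an experiment, and the deviations of same-numbered libraries from their group means correlated at -0.03 to 0.21, above 0.1 in 5 of 18 pairs, and in 11 of 18 the correlation was higher than with any other number. Erythroid markers were also highest in the library numbered 3 of each group. These are hints from the data. The paper states that both cell types were purified per mouse, so CLP and MPP libraries of an age and number may share a mouse. No label says so, and the numbers were not taken as pairing. The main test between the cell types is thus unpaired. The replicate block gave 11 calls for age in CLPs, 3 in MPPs and 1979 between the cell types. Genes near 0 counts, such as *Ankrd37* and *Lox*, were beyond this depth.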
